A study of Mus musculus with 2 samples.

Results

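The ubiquitin-specific proteases (USPs) are the largest family of deubiquitinases, enzymes that take ubiquitin off proteins. Removal of ubiquitin can spare a protein from the proteasome, return a receptor from the endosome to the cell surface, or change how a histone is read. In the pregnant uterus, where stroma turns into decidua, such turnover acts beside steroid receptor, TGF-beta and growth factor signalling. The mark measured on their transcripts was N6-methyladenosine (m6A), which is common near stop codons and in last exons of mRNA and affects RNA stability and translation.

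The Usp genes were taken as the protein-coding mm10 RefSeq genes whose symbol is Usp with digits and at most 1 further letter, and 49 of the 21787 protein-coding genes entered in this way. A peak was counted for a gene when its summit lay inside the gene span, exon or intron, and 117 of the 38366 deposited peaks did so. The m6A library was whole uterus of wild-type C57BL/6 mice, a mix of equal amounts of tissue from gestation days 4 and 8, precipitated with an anti-m6A antibody. The input library was whole uterus of the same strain with no antibody, and its label names no day or pooling. Each group held 1 library, so no value has a replicate and the groups could not be tested against each other. The days and the cell types of the wall cannot be separated in such a pool, and the peak names mention day 8 alone. All 16 listed marker genes of uterine cells carried a peak, beside 55.7% of all protein-coding genes, among them Pgr, Esr1 and Hoxa10, Myh11 of muscle, Epcam of epithelium, Pecam1 of endothelium and Ptprc of leukocytes.

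Peaks over gene starts can be shown with their sequence, since 250 bases before and 50 after the start were available from RefSeq (GRCm38.p6) for 37 of the 49 Usp genes. A deposited peak reached into this window in 7 of the 37 genes, Usp8, Usp24, Usp47, Usp7, Usp49, Usp27x and Usp19, beside 13.5% of 17492 protein-coding genes with a window. The 5 windows below are shown because they differ in where the summit lies. It lies after the start in Usp8 and Usp47, after an inner start in Usp7, and before the start in Usp49 and Usp27x. The peaks of Usp8 and Usp47 also cover bases before the start. Each window is printed 5′ to 3′ along the gene's own strand, and capitals mark the bases covered by the peak.
Usp8, chr2:126707078-126707377, plus strand: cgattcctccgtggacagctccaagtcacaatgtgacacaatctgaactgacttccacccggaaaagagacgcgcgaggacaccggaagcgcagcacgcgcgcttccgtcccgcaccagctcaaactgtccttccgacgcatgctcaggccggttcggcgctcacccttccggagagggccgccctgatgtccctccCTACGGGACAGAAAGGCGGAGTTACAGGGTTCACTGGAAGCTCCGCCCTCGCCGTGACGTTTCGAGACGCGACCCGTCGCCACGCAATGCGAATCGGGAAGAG
Usp47, chr7:112023256-112023555, plus strand: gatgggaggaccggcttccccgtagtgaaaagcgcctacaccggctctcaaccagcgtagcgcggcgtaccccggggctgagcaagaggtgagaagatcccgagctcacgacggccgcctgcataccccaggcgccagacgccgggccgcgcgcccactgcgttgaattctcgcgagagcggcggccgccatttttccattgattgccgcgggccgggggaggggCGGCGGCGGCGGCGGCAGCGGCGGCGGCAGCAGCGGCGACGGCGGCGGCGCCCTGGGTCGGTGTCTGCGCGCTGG
Usp7, chr16:8738293-8738592, minus strand: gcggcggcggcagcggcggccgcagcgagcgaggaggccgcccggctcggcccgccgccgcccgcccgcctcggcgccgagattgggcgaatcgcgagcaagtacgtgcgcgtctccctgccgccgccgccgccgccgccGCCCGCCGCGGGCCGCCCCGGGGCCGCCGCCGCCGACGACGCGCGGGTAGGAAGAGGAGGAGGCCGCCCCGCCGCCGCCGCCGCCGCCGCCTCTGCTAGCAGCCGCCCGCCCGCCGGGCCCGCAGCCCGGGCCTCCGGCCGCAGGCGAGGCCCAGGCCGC
Usp49, chr17:47630440-47630739, plus strand: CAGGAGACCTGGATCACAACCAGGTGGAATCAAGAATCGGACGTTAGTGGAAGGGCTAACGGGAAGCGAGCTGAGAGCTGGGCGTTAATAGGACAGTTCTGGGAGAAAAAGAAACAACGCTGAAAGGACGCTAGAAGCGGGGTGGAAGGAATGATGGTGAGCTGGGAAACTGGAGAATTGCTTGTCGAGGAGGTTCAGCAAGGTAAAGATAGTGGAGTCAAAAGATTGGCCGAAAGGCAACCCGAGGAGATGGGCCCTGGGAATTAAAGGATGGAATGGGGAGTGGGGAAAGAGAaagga
Usp27x, chrX:7375781-7376080, minus strand: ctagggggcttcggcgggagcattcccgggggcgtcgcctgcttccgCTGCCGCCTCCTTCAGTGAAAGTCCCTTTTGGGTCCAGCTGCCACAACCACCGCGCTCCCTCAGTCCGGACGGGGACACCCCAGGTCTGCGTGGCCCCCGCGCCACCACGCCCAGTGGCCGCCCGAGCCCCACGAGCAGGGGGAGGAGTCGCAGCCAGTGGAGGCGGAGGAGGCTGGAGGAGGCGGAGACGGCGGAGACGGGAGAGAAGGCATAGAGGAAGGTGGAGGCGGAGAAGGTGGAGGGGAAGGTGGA

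These start peaks differed in where their summits fell. In Usp8 the summit lay 112 bases after the start given for the window and in Usp47 144 bases after it, so the 75 covered bases of the Usp47 window are those at its 3′ end. The Usp7 window belongs to a start 18.7 kb inside the gene span as annotated, and the summit lay 18 bases after that start. In Usp27x and Usp49 the summit lay before the start, at -66 and -178 bases, outside the gene span. The Usp49 one fell in the span of the overlapping gene Gm20517 and the Usp27x one in no annotated gene. The Usp19 summit lay farther out, at -776 bases in the span of Lamb2, and its peak covered 41 bases of the window. Of the 7 summits, those of Usp19, Usp27x and Usp49 were therefore outside the member's own span. The motif GGACT, or AGTCC on the other strand, a frequent form of the m6A consensus, was found in the Usp24 and Usp27x windows among these 7. In Usp24 it was 1 GGACT, outside the bases covered by the peak. The Usp27x window held 2 AGTCC in covered bases and no GGACT, so its motif lay on the strand opposite the gene. On either strand the motif occurred in 14 of all 37 Usp windows (37.8%), and in 46.6% of 21263 protein-coding windows.

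Of the 49 Usp genes 41 carried a peak (83.7%), beside 55.7% of all protein-coding genes. Usp genes are long, with a median span of 49.4 kb against 17.2 kb over all protein-coding genes, and long genes more often hold a peak. Between the lower and upper quartile of Usp spans 20 of 25 members had a peak, against 66.8% of 4693 protein-coding genes in the same range of spans. Within that range the median span was 49.4 kb for the members and 40.7 kb for the 4693 genes. The members without a peak were Usp9y on the Y chromosome, the testis gene Usp26, Usp11, which acts on BRCA2, Usp20, Usp28, which stabilises Myc, Usp44, Usp45, which acts on the repair nuclease subunit Ercc1, and Usp50. For these 8, absence of the mark, absence of the transcript and thin coverage cannot be told apart.

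Fold enrichment is the authors' value, a ratio of fragments in the immunoprecipitate (IP) to the local background where the peak is highest. Values in parentheses after a fold are its 95% limits, from an exact Poisson interval for the IP count over a fixed background, so they cover counting error only. Over the 41 members the median fold of a gene's highest peak was 6.80, against 8.04 over the 12134 protein-coding genes with a peak. The order turned round on the authors' −log10 q, with medians of 29.7 in Usp genes and 23.4 in all. The highest Usp peaks were deeper, with a median of 57 IP fragments against 35, and stood on more background, 4.94 against 3.09 scaled fragments, and the part of depth in these differences was not tested. At least 10-fold was reached by 9 of 49 members, against 17.5% of all protein-coding genes, shares that lay close and also count genes without a peak. Among genes with a peak it was reached by 9 of 41 members, against 3812 of 12134. Between the lower and upper quartile of Usp spans the share, again with genes without a peak counted, was 16% of members against 21.3%. These differences were not tested.

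**Figure D1:**
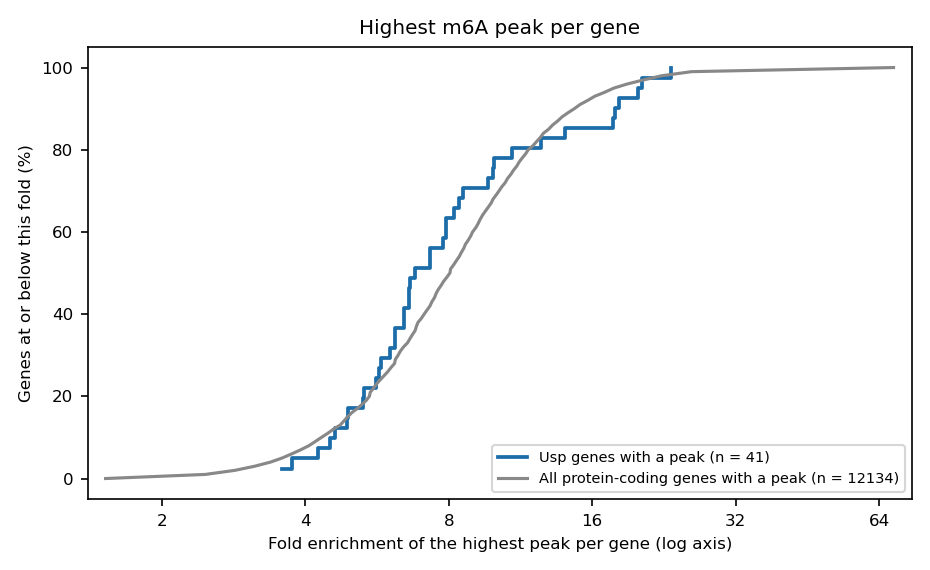
Share of genes (y axis, percent) whose highest peak was at or below the fold on the x axis (log scale), for the 41 Usp genes with a peak (blue) and the 12134 protein-coding genes with a peak (grey). The Usp curve rises earlier through the middle, with medians of 6.80 and 8.04, and meets the grey curve near 12-fold.

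Among the USPs that act on histones and transcription, 10 of 11 carried a peak, beside 55.7% of all protein-coding genes, and these include the highest of the family. Usp27x (NCBI Gene 54651), an X-linked relative of Usp22 that removes ubiquitin from histone H2B, had 57 IP fragments over a background of 1.48 at its only peak, or 23.4-fold (17.8 to 30.2). That peak, at chromosome X, 7373329 to 7375226, was 1898 bases wide in a gene span of 3.24 kb (7372591 to 7375830). Usp36 (NCBI Gene 72344), a nucleolar enzyme of ribosome production, held 5 peaks, at 70.1% to 95.2% of its span on chromosome 11 (118259651 to 118290260). From gene start to gene end these Usp36 peaks reached 6.18-, 7.73-, 19.98-, 13.8- and 7.06-fold. The highest, at 118264717 to 118265287, had 93 IP fragments over 3.71 (16.2 to 24.4), and its interval lay above those of the others except the 13.8-fold peak beside it.

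Usp42 (NCBI Gene 76800), linked to H2B and p53, also held 5 peaks, of 4.78-fold to 17.7-fold. Its highest spanned 1562 bases at chromosome 5, 143714630 to 143716191, with 78 IP fragments over 3.46 (14.1 to 22.1). Usp49, an H2B enzyme, reached 9.98-fold (6.59 to 14.5) from 25 fragments at chromosome 17, 47649765 to 47649984. All 3 of its summits also lay in Gm20517. Usp16, which acts on histone H2A in mitosis, reached 9.93-fold (8.15 to 11.97) from 107 fragments over 9.88, at chromosome 16, 87478940 to 87479700.

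The remaining histone enzymes had lower or thinner peaks. Usp7, which deubiquitinates Mdm2 and p53, reached 7.32-fold (4.22 to 11.9) from 14 fragments, at the inner start printed above. Usp51 had 2 peaks of 8 and 6 fragments, both at the genome-wide background of 0.462, with 6.16-fold (3.05 to 11.5) as the higher. Usp3, which acts on histone H2A, stood at 5.77-fold, and Usp21, another H2A enzyme, at 3.57-fold. Usp22, the enzyme of the SAGA coactivator, stood at 4.92-fold from 10 fragments. Usp44, of the mitotic checkpoint, had no peak.

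**Figure D2:**
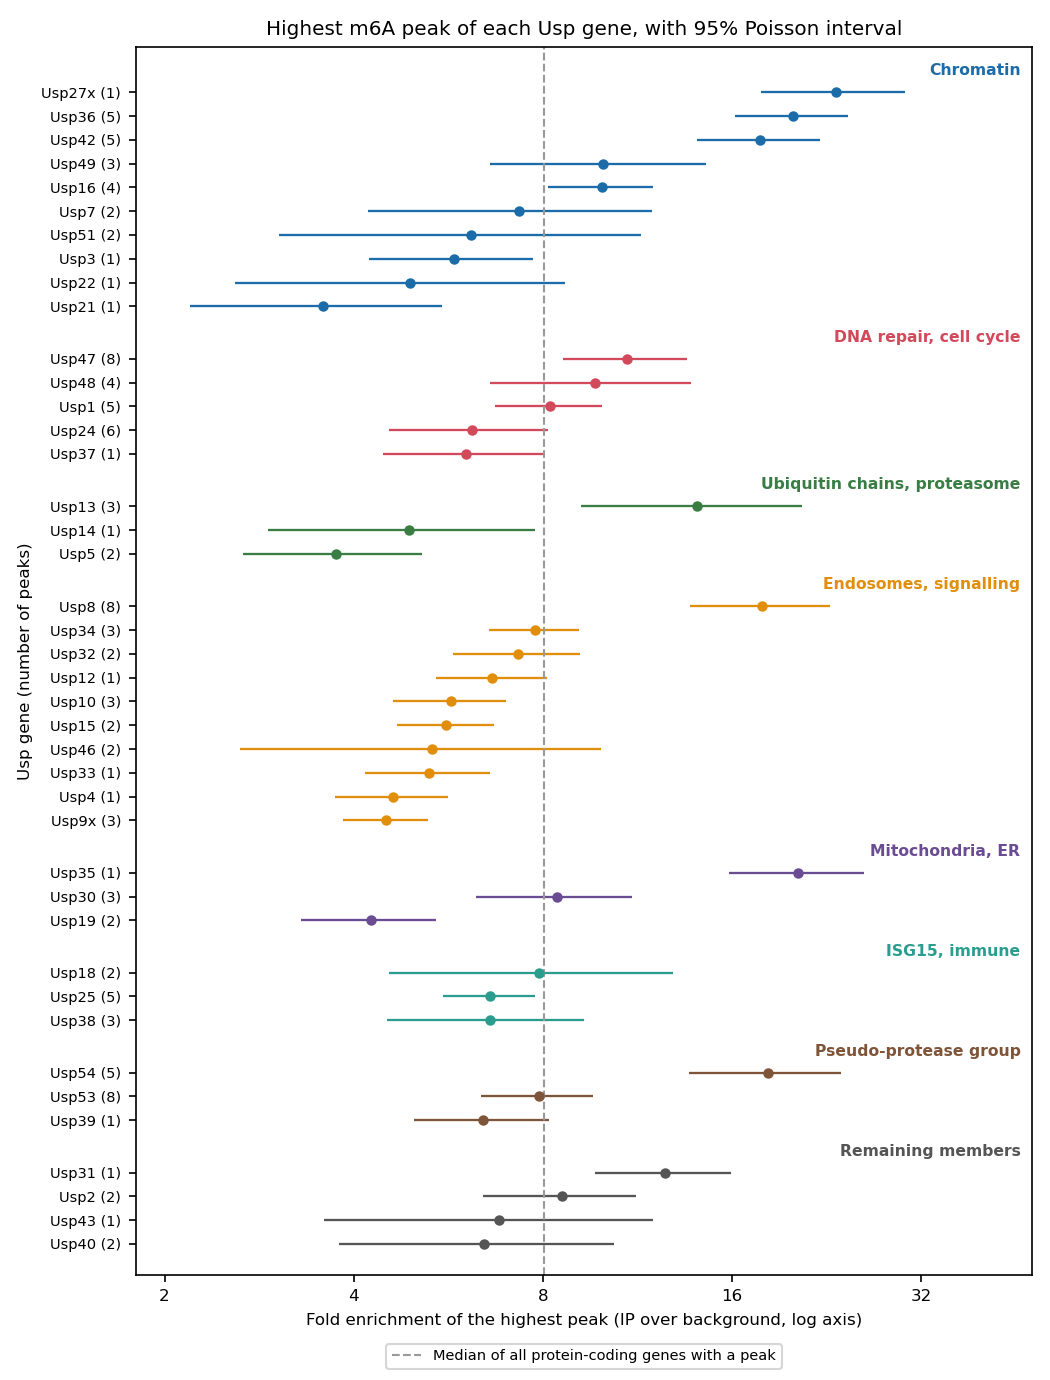
Fold enrichment of the highest peak (x axis, log scale) for the 41 Usp genes with a peak, in groups by known role, with the number of peaks in parentheses. Points are the authors' fold and bars the 95% Poisson interval on the IP fragments; Usp27x (23.4), Usp35 (20.4) and Usp36 (19.98) stand highest, and the dashed line is the median of all protein-coding genes with a peak (8.04).

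Of the 8 genes of DNA repair and the cell cycle 5 had a peak, and 3 of the 8 had at least 5, beside 55.7% and 8.33% of all protein-coding genes. Usp47, which acts on the repair polymerase beta, held 8 peaks of 4.04-fold to 10.9-fold along chromosome 7, 112023476 to 112111386. The highest, at 112101553 to 112101898, had 77 fragments over 6.18 (8.61 to 13.6). The peak at the Usp47 gene start stood at 9.51-fold (6.595 to 13.3) from 32 fragments, an interval that overlaps that of the highest. The deepest Usp47 peak held 164 fragments but, over a background of 17.9, reached 8.73-fold. Fold and depth therefore ranked the peaks of this gene differently.

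Usp48, which acts on histone H2A at sites ubiquitinated by BRCA1, reached 9.68-fold (6.59 to 13.8) at chromosome 4, 137650140 to 137650348, from 29 fragments. Usp1, which deubiquitinates FANCD2 and PCNA, had its 5 peaks in a span of 11.7 kb on chromosome 4. They ran between 4.46-fold and 8.21-fold (6.72 to 9.95), and the highest lay at 98932050 to 98932297 with 103 fragments over 11.7. Usp24 held 6 peaks, 2 near its start and 4 in the last 9.88 kb of its 131 kb span, with 6.16-fold (4.56 to 8.15) as the highest, at 106436586 to 106436824 of chromosome 4. Usp37, which acts on cyclin A, had 1 peak of 6.03-fold, at a summit that also lies in Cnot9. Usp11, Usp28 and Usp45 had none.

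The 3 enzymes of free ubiquitin chains and the proteasome all had a peak, beside 55.7% of all protein-coding genes. Usp13, a relative of isopeptidase T, reached 14.1-fold (9.21 to 20.6) at chromosome 3, 32933031 to 32933412, but from only 24 fragments over 0.778. Another Usp13 peak, at 32926613 to 32926812, rested on 5 fragments over 0.543, the fewest of any Usp peak, at 3.89-fold (1.70 to 8.21). Usp5, isopeptidase T itself, had 2 peaks of 3.75-fold and 2.35-fold, and the second, at chromosome 6, 124815457 to 124815733 with 39 fragments over 16.1 (1.68 to 3.18), was the lowest fold in the family. The proteasome-bound Usp14 had 1 peak of 4.90-fold from 16 fragments.

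Of the 11 genes of endosomes and signalling 10 had a peak, beside 55.7% of all protein-coding genes, with a median highest fold of 5.67 against 8.04. The highest peaks of this group had a median of 92.5 IP fragments against 35 and a median background of 14.5 against 3.09. The part of background in the lower fold was not tested. Usp8 (NCBI Gene 84092), which sorts EGF receptor at the endosome, held 8 peaks on chromosome 2 (126707201 to 126759314). In order along the gene they reached 7.16-, 17.9-, 11.6-, 5.13-, 3.72-, 7.68-, 4.77- and 4.19-fold. The 17.9-fold peak, at 126709210 to 126709511, had 61 fragments over 2.47 (13.7 to 22.9), and its interval lay above those of all the others except the 11.6-fold peak that follows. Its summit also lay in the overlapping gene Gm10774, and the list gives no strand. The 7.68-fold peak was the deepest of Usp8, with 187 fragments over 23.5.

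The other 9 of this group stood at 4.50-fold to 7.77-fold. Usp34, which acts on axin in Wnt signalling, reached 7.77-fold (6.57 to 9.13) from 146 fragments. Usp32 reached 7.31-fold, Usp12 6.65-fold, the p53 enzyme Usp10 5.72-fold, Usp15, which deubiquitinates Smads and the TGF-beta receptor, 5.62-fold, Usp46 5.32-fold from 8 fragments, Usp33 5.28-fold and Usp4 4.62-fold. Usp9x, which acts on Smad4 and is expressed in most tissues, had 162 fragments over the high background of 35.2 and stood at 4.50-fold (3.84 to 5.25). Usp20 had no peak in its span.

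Of the organelle enzymes, Usp35 (NCBI Gene 244144), reported at mitochondria, had a single peak of 20.4-fold (15.8 to 25.9) with 65 fragments over 2.24, at chromosome 7, 97312096 to 97312459. Usp30, which limits mitophagy at the outer mitochondrial membrane, reached 8.42-fold (6.27 to 11.1), and Usp19 of the endoplasmic reticulum 4.25-fold. In the immune group Usp18, which removes the ubiquitin-like ISG15, reached 7.89-fold (4.55 to 12.9) from 14 fragments, at chromosome 6, 121252286 to 121252496. Usp25, which acts on TRAF proteins, carried 5 summits, between 2.70-fold and 6.59-fold. Its top value (5.56 to 7.77) came from 140 fragments at chromosome 16, 77115269 to 77115912. Usp38 had 3 peaks, up to 6.59-fold (4.51 to 9.31).

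Members long held to lack protease activity gave both a high and a deep case. Usp54 (NCBI Gene 78787) held 5 peaks, and the highest reached 18.2-fold (13.7 to 23.9) from 51 fragments over 1.85, at chromosome 14, 20641109 to 20641850, 3064 bases from the gene start. Usp53, a tight junction protein needed for hearing in the mouse, held 8 peaks of 2.95-fold to 7.88-fold on chromosome 3 (122931486 to 122984900). The highest Usp53 peak had 94 fragments over 11.1 (6.38 to 9.63), at 122983935 to 122984377. Usp53 also held the deepest peaks of the family, of 257 and 251 fragments, at 5.60-fold and 4.71-fold over backgrounds of 45.1 and 52.5. The splicing factor Usp39 had 1 peak of 6.43-fold (4.99 to 8.17), and Usp50 had none.

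Of the remaining members, Usp31 had 1 peak of 12.5-fold (9.67 to 15.9), which was 1892 bases wide, at chromosome 7, 121648004 to 121649895. Usp2, whose transcript follows the circadian clock, reached 8.59-fold, Usp43 6.80-fold from 10 fragments and Usp40 6.45-fold from 15 fragments. Over all 117 Usp peaks the width ran from 200 to 1898 bases, and 14 were at least 1000 bases wide, against 10.9% of all peaks in protein-coding genes. A summit lay in at least 1 further annotated gene at 12 of the 117, against 8.29%.

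Fold and background were weakly and inversely related. Across the 41 members, Spearman's correlation between background and fold at the highest peak was -0.36, and it was -0.32 across the 12134 protein-coding genes with a peak. Both quantities come from the same summit and share the background as denominator, so these values are descriptions. Usp27x, Usp35, Usp36, Usp54, Usp8 and Usp42, the 6 members above 15-fold, stood on backgrounds of 1.48 to 3.71, and the error of so small a background is not in the intervals. At 3 of the 117 Usp peaks, 1 in Usp13 and both in Usp51, the background equalled the genome-wide level, against 1417 of 32945 protein-coding peaks. Few IP fragments, under 10, lay under 5 of the 117, those of Usp51 and single peaks of Usp13, Usp46 and Usp54. The same held for 2381 of the 32945 protein-coding peaks.

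Peaks within a gene were compared by the highest and the lowest fold. Of the 28 members with at least 2 peaks, 16 (57.1%) had a highest and a lowest peak whose intervals did not overlap. The share was 48.4% of 7998 protein-coding genes with at least 2 peaks, and the difference was not tested. The peaks compared were picked as the extremes, which favours intervals that lie apart. At least 5 peaks were held by 9 of 49 members, against 8.33% of all protein-coding genes. Among genes between the lower and upper quartile of Usp spans they were held by 4 of 25 members, against 516 of 4693. Exactly 1 peak was held by 13 of the 41 members with a peak, against 4136 of 12134 protein-coding genes with a peak. These differences were not tested. The 9 members with at least 5 were Usp8, Usp47 and Usp53 with 8, Usp24 with 6, and Usp1, Usp25, Usp36, Usp42 and Usp54 with 5. Gene length followed these numbers loosely. Spearman's correlation between span and peak number was 0.19 over the 49 members and 0.41 over all protein-coding genes. Usp34, with the longest span of the family (187 kb), had 3 peaks, while Usp1 had 5 in 11.7 kb.

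Summits could be placed between gene start and gene end in the 30 peak-carrying members whose strand the promoter table gives, with 87 summits. In the last 10% of the span lay 32 of them, against 29.6% of 27037 protein-coding summits. At least 1 summit in the last 10% was found in 22 of the 30 members, against 59.1% of genes. The highest summit of a gene lay in the last 20% in 16 of 30, against 41.4%. In the last 10% it lay in 9 of 30 (30%), against 29.7%, so that the shares hardly differed there. Close to the annotated end the order turned: 6 of 87 summits lay within 1000 bases of it, against 15.9%, and 4 lay within 1000 bases of the start, against 10.5%. The 6 near the end were in Usp4, Usp10, Usp19, Usp27x, Usp30 and Usp48. The highest summit of a gene lay within 5 kb of the end in 12 of 30, against 50.6%. Usp spans are longer than most, so 1000 bases or 5 kb are a smaller part of them. The part of length in these shares was not tested.

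**Figure D3:**
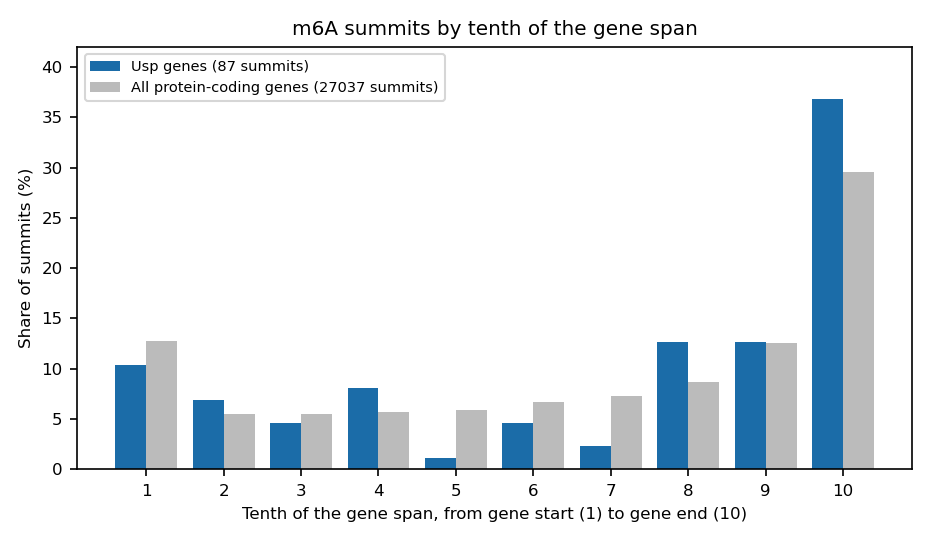
Share of summits (y axis, percent) in each 10% of the gene span from gene start to gene end (x axis, numbered 1 to 10), for 87 summits in Usp genes (blue) and 27037 in all protein-coding genes with a strand (grey). The last 10% is the fullest in both, with 36.8% of Usp summits and 29.6% of all.

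Individual members kept their highest peak at opposite ends. In Usp25, Usp4, Usp32, Usp13, Usp30, Usp12 and Usp3 it lay beyond 95% of the span. In Usp40, Usp38, Usp54 and Usp8 it lay in the first 5%, at 1.64%, 2.13%, 3.21% and 4.19%. Usp40, Usp38 and Usp54 had further, lower peaks in the last 10%. In Usp38 the highest, of 6.59-fold (4.51 to 9.31), hardly differed from a peak of 6.42-fold (4.84 to 8.36) at 87.0% of the span. In Usp40 the highest rested on 15 fragments, and its interval overlapped that of the other peak. The share of all genes with the highest peak in these outer parts was not counted.

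**Figure D4:**
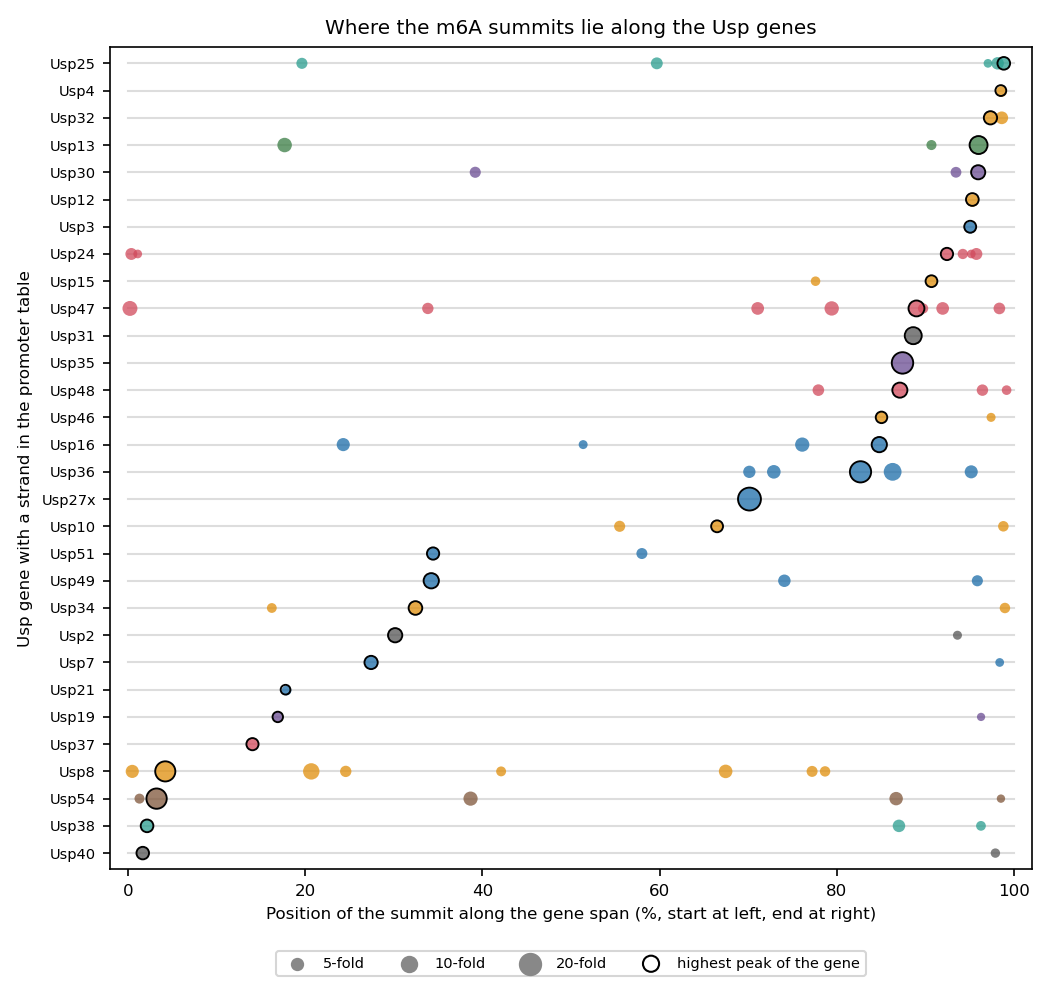
Summits along the span (x axis, percent from gene start to gene end) of the 30 peak-carrying Usp genes with a strand (1 line each), with the circle area growing with fold, colours by role as in the plot of the highest fold, and the highest peak of each gene ringed. The highest peaks crowd beyond 80% of the span, in 16 genes, while those of Usp40, Usp38, Usp54 and Usp8 lie in the first 5%.

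Related members were set side by side by their highest peak, in 12 pairs listed after the values were seen. In 7 pairs both had a peak, and the intervals lay apart in 5. Pairs of other genes were not counted in this way, so these counts cannot be called particular to related members. Usp13 stood at 14.1-fold (9.21 to 20.6) and Usp5 at 3.75-fold (2.67 to 5.13). Usp35 stood at 20.4-fold (15.8 to 25.9) and Usp38 at 6.59-fold (4.51 to 9.31), and Usp54 stood at 18.2-fold (13.7 to 23.9) and Usp53 at 7.88-fold (6.38 to 9.63). Usp27x stood above both Usp22 (2.59 to 8.68) and Usp51 (3.05 to 11.5). The intervals overlapped for Usp12 with Usp46, which share the cofactor Wdr48, and for Usp15 with Usp4. With at least 10 fragments or a −log10 q of at least 5 required, the highest of Usp46 was 2.97-fold (2.09 to 4.10), apart from Usp12 (5.399 to 8.11). In the other 5 pairs the second had no peak: Usp25 and Usp28, Usp33 and Usp20, Usp16 and Usp45, Usp15 and Usp11, and Usp9x and Usp9y.

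Partners and other deubiquitinases gave a frame for these values. Of 16 genes for cofactors of Usp enzymes 14 had a peak, beside 55.7% of all protein-coding genes. They were led by the SAGA subunit genes Atxn7l1 at 12.5-fold (8.48 to 17.7) and Atxn7 at 12.3-fold (9.65 to 15.4), and by the proteasome gene Psmd2 at 10.4-fold (7.73 to 13.7). Eny2 and Stam2 had none. Wdr48, the cofactor of Usp1, Usp12 and Usp46, stood at 3.38-fold (2.46 to 4.54). A further list held 39 genes of other deubiquitinase families, with genes of complex subunits such as Psmd7, Cops5, Cops6, Eif3f and Eif3h among them. Of these 39 genes 32 had a peak (82.1%, beside the same 55.7%). Their median highest fold was 9.26 against the 6.80 of Usp genes given above, and the difference was not tested. At least 10-fold was reached by 13 of the 39, beside the 17.5% of all protein-coding genes. They were led by Mindy2 at 36.1-fold (27.2 to 47.1), on a background of 0.494, Otud7a at 26.2-fold (19.6 to 34.2) and Otud6b at 17.6-fold (13.5 to 22.5). Of the 6 ubiquitin and E1 genes all but Rps27a had a peak, again beside 55.7%, among them the E1 genes Uba6 at 9.76-fold and Uba1 at 6.00-fold. The polyubiquitin gene Ubb had 189 fragments over a background of 74.1, or 2.53-fold (2.18 to 2.92).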

How the data were processed

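Total RNA was extracted with TRIzol and libraries were made with a directional kit, per the labels' protocols. HISAT2 2.2.1 and MACS3 3.0.0a7 on mm10 are named in the submitters' processing notes, with no settings. The deposited list holds 38366 peaks called for the m6A library, and positions are printed counted from 1. Its fold (ratio of IP pileup to background), −log10 p and −log10 q at the summit are as deposited by the authors, with −log10 q from 1.32 up. The score column deposited for display was left aside. How many reads each library held was not given in the sources used here.

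IP fragments (k) and background (b) were recovered from fold = (k + 1)/(b + 1) and the Poisson chance of more than k, within 0.001 of the deposited −log10 p at 100% of peaks. Since 1 is added to both, the fold understates the enrichment of thin peaks. In simulated data 100% of summits were recovered. PCR copies are not independent molecules.

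Gene spans came from RefSeq (GRCm38.p6, the assembly of mm10), leaving out 365 genes outside the assembled chromosomes. Strand came from the RefSeq promoter table (17492 protein-coding genes). No exon positions were used. A promoter window counted as reached by a peak from 1 shared base.

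The Usp genes, the role lists and the alternatives were chosen with earlier results of these data known. One further Usp gene and 1 gene of another list are not reported here. Every Usp gene is named, with full values for the 12 of highest fold, the 5 with most peaks (9 with ties), the highest of each role list, and the thinnest and lowest peaks; of other lists the 3 highest, and genes without a peak where at most 5. Genes outside this rule (Wdr48 and Ubb among them) were named after their values were seen. With 1 library per group no test was made. Scripts ran in Python 3.11.15 with scipy 1.17.1, pandas 2.3.3 and numpy 2.4.6, and figures were drawn with matplotlib 3.10.9.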

Additional observations from a re-analysis of the deposited data

How the results depend on the processing

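With 1 library per group there is no replicate to leave out, and library sizes and input depth limit every fold. No paired analysis was possible because each group holds 1 library. Over the alternative peak filters and links, 39 to 41 Usp genes kept a peak, and their median highest fold ran from 6.80 to 7.31. The share of all protein-coding genes with a peak was 53.1% at a −log10 q of at least 5, 51.5% at a fold of at least 4, 52.9% with at least 10 IP fragments, 52.7% with summits in a single protein-coding gene, and 61.4% among genes within the Usp span range. The median highest fold of all genes was 8.21, 8.39 and 8.23 under the first 3 of these. Taking each gene's median peak in place of its highest, it was 5.71 in Usp genes and 6.16 in all, and with −log10 q as score 29.7 and 23.4, a change of unit that puts Usp genes above all genes. The share of Usp summits near the gene end was 1.15% within 500 bases and 20.7% within 2000 bases, by construction of the window. Usp21 and Usp22 lost their only peak at the q limit, Usp21 and Usp5 their peaks at the fold limit, Usp51 its peaks at 10 fragments, where the highest fold of Usp46 became 2.97, as it did at the q limit, and Usp37 and Usp49 their peaks with single-gene summits. With 1 base of overlap the highest fold of Usp49 became 18.7, that of the peak before its start. Merging peaks of the same interval changed nothing, since none were repeated. With longer symbols also admitted, 42 genes had a peak. Of the added genes only Usp6nl had 1 and the Usp17l genes had none, so the share with a peak fell.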

Other observations

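Peaks with summits just outside the Usp spans are not among the 117, though those that reach the start windows of Usp19, Usp27x and Usp49 are in the count of windows. Within 5 kb of a Usp span lay 35 summits, around 16 members, and 32 of them fell in another annotated gene. The 3 in no gene were next to Usp27x and Usp53. Summits around other protein-coding genes were not counted in this way, so these counts cannot be called particular to Usp genes. Before the start of Usp27x, at a distance of 66 bases, a peak at chromosome X, 7375392 to 7376033, reached 11.6-fold (7.01 to 18.1), with a background of 0.556 under its 17 IP fragments. Outside the Usp53 span, at 298 and 956 bases, peaks stood at 2.08-fold (1.51 to 2.81) and 3.43-fold (2.55 to 4.53), from 41 and 48 fragments.

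Usp20, without a peak in its own span, had 4 summits within 5 kb before its start, all in the span of BC005624, and the nearest, at 594 bases, stood at 13.7-fold (9.28 to 19.6) from 28 fragments. Usp26 lay farthest from any peak, 627403 bases from the nearest. Usp9y lay 30480 bases from a peak of 5.47-fold in Ddx3y and Gm4017. The 5 Usp17l genes, whose symbols have a longer ending, had no peak, and Usp6nl, named for a likeness to another Usp gene, had 1 of 8.53-fold.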
